A study of Mus musculus with 22 samples.

Results

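The steroid hormone receptors and progesterone-binding proteins measured here were 9 genes of the count table: Esr1, Esr2, Esrra, Esrrg, Nr3c1, Nr3c2, Pgr, Pgrmc1 and Pgrmc2. They are 9 of 15297 genes and were chosen by their annotated symbol, not by their values. Their 76 features, out of 112366 endogenous features, are regions in which 5' ends of RNA were counted. The reads of a gene's features were summed per gene.

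The RNA was taken from the motor cortex, area M1, of C57BL/6 males that were 16 to 20 weeks old. The groups were 6 WT mice and 5 BERKO mice, in which Esr2, the gene of estrogen receptor beta, is knocked out. A sixth BERKO mouse, number 1, is not analysed here, and the labels say that 1 BERKO sample was removed as an outlier. Needle biopsies of the right and the left side of each mouse gave 22 libraries. All were anesthetized with pentobarbital, and the sources used here do not say how the BERKO allele was built. The right and left biopsies of a mouse are not separate replicates, so the mouse is the replicate throughout.

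Steroid receptors of the nuclear family are transcription factors that bind a hormone, move to or stay on chromatin, and change the transcription of target genes with coregulator proteins. Esr1 and Esr2 encode the estrogen receptors alpha and beta, Pgr the progesterone receptor, Nr3c1 the glucocorticoid receptor and Nr3c2 the mineralocorticoid receptor. Esrra and Esrrg encode estrogen-related receptors, which resemble estrogen receptors but do not bind estradiol and are known for driving genes of mitochondrial energy metabolism. Pgrmc1 and Pgrmc2 are heme-binding membrane proteins of another family, linked to progesterone responses and to cytochrome P450 enzymes. In brain, corticosterone acts through both Nr3c1 and Nr3c2, and Nr3c2 has the higher affinity.

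Gene reads per biopsy ranged from 239058 to 1893400. A count of 0 in a biopsy therefore allows a level of up to 1.58 to 12.5 counts per 1000000 gene reads (CPM), taking 3 reads as the limit. Such limits cover counting error only, and the sources used here do not say whether reads were collapsed to molecules. Markers of excitatory neurons, a defining cell type of cortex, were detected in every biopsy, with 6 markers summing to 1882 to 5720 CPM. A set of 3 WT libraries stood apart from the other 19, namely the right and left biopsies of WT 1 and the left biopsy of WT 2. In these 3, the 9 markers of subcortical and hypothalamic neurons summed to 1776, 2150 and 2324 CPM, against 199.9 to 653.8 CPM in the other 19. Ecel1, 1 of the 9 markers, had 0 reads in all WT left biopsies, those of WT 1 and WT 2 included. The same 3 libraries had low sums of oligodendrocyte markers, 1738, 3005 and 2557 CPM, against 3907 to 17592 CPM in the other 19. Their microglia marker sums were 300.5, 360.3 and 392.0 CPM, against 393.4 to 719.4 CPM in the other 19. Interneuron and astrocyte marker sums of the 3 lay within the range of the other 19. The levels of the single markers behind these sums are not given here. Results that rest on the 3 libraries are given with and without them.

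Where in a gene its reads fell differed between the 9 genes. Pgrmc1 had 6850 reads, of which 98.9% came from a single feature in the 5' UTR at chrX:34138200 on the plus strand (mm9). Nr3c2 had 241 reads, of which 65.1% came from a feature upstream of the gene at chr8:79426245 on the plus strand. Pgrmc2 had 340 reads, with only 5.59% in the 5' UTR, 36.5% in the coding sequence and 57.9% in the 3' UTR. Nr3c1 had 1786 reads and no promoter feature in the table. Of these, 73.8% came from 1 coding feature at chr18:39646767 and 12.3% from another at chr18:39646282, both on the minus strand. Esrra had 199 reads, 71.4% of them in the 3' UTR, and Esrrg had 207 reads, 95.2% of them in introns. Pgr had 27 reads, Esr2 had 13 and Esr1 had none. The method tags 5' ends, so values of Esrra, Esrrg, Pgrmc2 and Nr3c1 are mostly reads that start away from the annotated promoter.

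**Figure D1:**
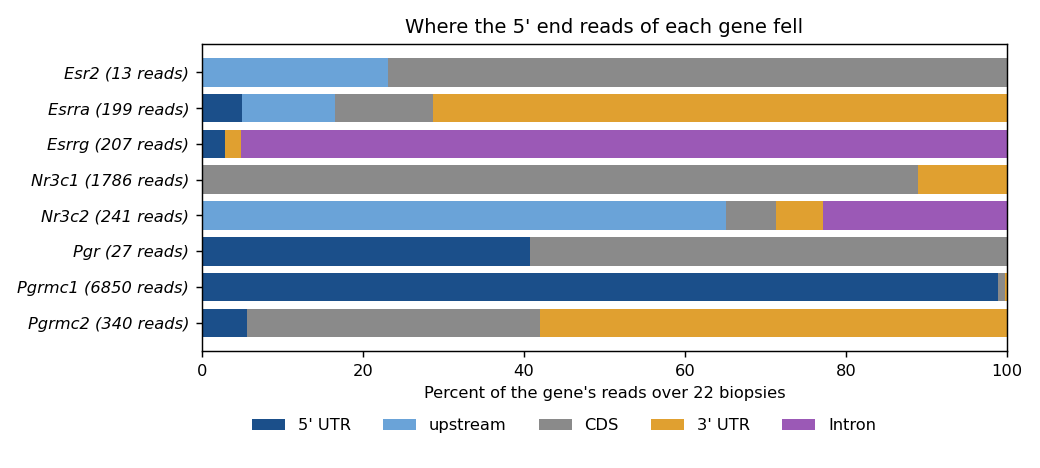
Share of each gene's reads (percent, x axis, over 22 biopsies) by annotated feature class for the 8 genes with reads, with the number of reads beside the symbol. Pgrmc1 is almost wholly 5' UTR (98.9%), Nr3c2 is mostly upstream (65.1%) and Esrrg is almost wholly intronic (95.2%).

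The promoters of Nr3c2 and Pgrmc1 are shown because the reads of these genes came mainly from their 5' ends, and that of Pgrmc2 because its reads did not. Each is the 250 bases before the annotated start, from RefSeq on GRCm38.p6, written 5' to 3' on the strand of the gene. Capitals mark the GC box, GGGCGG or CCGCCC on the other strand, the motif of Sp1-type factors. These coordinates are on another build than those of the counted features and are not set against them. The windows are chr8:76902080-76902329 (plus strand), chrX:36597943-36598192 (plus strand) and chr3:41083047-41083296 (minus strand).
Nr3c2: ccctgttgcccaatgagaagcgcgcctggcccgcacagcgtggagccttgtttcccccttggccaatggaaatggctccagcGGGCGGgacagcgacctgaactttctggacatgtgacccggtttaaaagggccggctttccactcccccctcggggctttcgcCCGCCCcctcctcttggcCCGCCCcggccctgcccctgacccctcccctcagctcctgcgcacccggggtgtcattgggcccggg
Pgrmc1: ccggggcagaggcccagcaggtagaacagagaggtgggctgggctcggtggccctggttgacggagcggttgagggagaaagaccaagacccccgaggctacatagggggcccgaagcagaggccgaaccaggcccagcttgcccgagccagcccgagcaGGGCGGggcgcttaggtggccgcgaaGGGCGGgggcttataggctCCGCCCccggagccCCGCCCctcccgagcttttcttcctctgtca
Pgrmc2: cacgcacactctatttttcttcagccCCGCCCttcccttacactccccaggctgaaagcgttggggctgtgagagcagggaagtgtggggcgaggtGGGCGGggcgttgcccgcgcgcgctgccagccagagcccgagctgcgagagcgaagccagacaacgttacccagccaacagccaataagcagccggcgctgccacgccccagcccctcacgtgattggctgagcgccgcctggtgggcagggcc

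These windows held 3, 4 and 2 GC boxes, a motif found in 32.7% of 32851 mouse promoter windows of this length. Their GC contents were 68.4%, 69.6% and 67.2%, against a median of 52.4% over all windows. Nr3c2 and Pgrmc2 also held 3 and 2 CCAAT boxes (CCAAT, on either strand), found in 33.8% of all windows, and Pgrmc1 held none. Of the 9 genes, 8 matched the promoter table, with 12 windows in all. The full estrogen response element, GGTCA and TGACC with 3 bases between them, was in 0 of the 12 windows and in 0.0639% of all windows. Its core AGGTCA, on either strand, was likewise in 0 of the 12, against 14.0% of all.

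Estrogen receptors had few or no reads. Esr1 was listed with 1 intron feature, at chr10:5725556 on the minus strand, while its promoter windows are on the plus strand. That feature had 0 reads in all 22 biopsies. For it, this allows up to 0.241 CPM over the pooled WT libraries and 0.448 CPM over the pooled BERKO libraries. No counted feature lay on the strand of the gene, so these values set no limit on Esr1 RNA. Esr2, the gene that BERKO mice lack, had 3 reads in WT, all in the right biopsy of WT 1 and all from an upstream feature at chr12:77278248. It had 10 reads in BERKO, 6 in the left biopsy of BERKO 3 and 4 in the left biopsy of BERKO 5, all from a coding feature at chr12:77246443. The other 19 biopsies had 0 reads of Esr2. The sources used here do not say where the disrupted part of the gene lies, so these reads do not check the genotype labels.

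Pgr, whose transcription is a classical response to estrogen receptor alpha, was also near the limit. It had 11 reads in WT, 8 in the right biopsy of WT 4 and 3 in the left biopsy of WT 3, all from the 5' UTR feature at chr9:8900418. It had 16 reads in BERKO, 12 in the right and 2 in the left biopsy of BERKO 3 and 2 in the left biopsy of BERKO 5, all from the coding features at chr9:8901584 and chr9:8901755. The WT reads and the BERKO reads of Pgr thus came from different features, in 2 and 3 biopsies. None of Esr1, Esr2 and Pgr passed the expression filter, so none was tested.

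Over mice, 6 of the 9 genes passed the filter of edgeR (Esrra, Esrrg, Nr3c1, Nr3c2, Pgrmc1 and Pgrmc2), and 0 of them differed between BERKO and WT at an adjusted p under 0.05. The quasi-likelihood test called 7 of all 9025 genes, or 0.0776%. Among the 6, 1 gene, Nr3c2, had an unadjusted p under 0.05, as had 9.92% of all genes. DESeq2 gave an adjusted p to 2 of these 6 and called 0 of them. Nr3c2 was given none, so DESeq2 made no decision on it over mice. Limma-voom called 0 of the 6. Of the single features of the 9 genes, 7 were tested over mice and 0 called, against 0.114% of all 13128 features. The upstream feature of Nr3c2 and the 5' UTR feature of Pgrmc1 were the 2 at an unadjusted p under 0.05. Scaling to spike-in reads raised the median change of all genes over mice by 0.20 log2 units, and calls were then 43 higher and 2 lower in BERKO, against 4 higher and 3 lower. Groups of mice that did not overlap were found for 0 of the 6 genes tested and for 1.32% of all genes tested. Every BERKO mouse lay below every WT mouse for 0.587% of all genes tested and above for 0.731%.

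On the right side alone, 5 of the 9 genes were tested and 1, Nr3c2, was called, against 0.065% of all 7696 genes. Nr3c2 passed the filter only through the WT right biopsies, where it is high, as the BERKO right biopsies had 0 or 1 read. It was also the 1 gene of these 5 at an unadjusted p under 0.05, as were 8.25% of all. On the left side alone, 3 were tested and 0 called, with 0.0% of all 6616 genes called. Among these 3, 1 gene, Pgrmc1, had an unadjusted p under 0.05, as had 6.76% of all genes on that side. Groups without overlap on the left were found for 0 of the 3 genes tested, against 1.06% of all genes tested. Of all tested, 0.65% had BERKO below and 0.408% had BERKO above.

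Nr3c2, the mineralocorticoid receptor, was lower in BERKO on the right side. The right biopsies of WT 1 to WT 6 had 41, 9, 80, 12, 15 and 22 reads. The right biopsies of BERKO 2 to BERKO 6 had 0, 0, 1, 0 and 0 reads. Every BERKO right biopsy thus lay below every WT right biopsy, on reads and on CPM. The levels were 21.3 ± 14.9 CPM in WT right biopsies (SD, n = 6) and 0.233 ± 0.521 CPM in BERKO right biopsies (SD, n = 5). The lowest WT right biopsy had 7.59 CPM, and a count of 0 allows 3.16 to 4.79 CPM in the BERKO right biopsies, by counting error only. Reads of Nr3c2 also varied within a mouse. WT 6 had 22 on the right and 0 on the left, and BERKO 2 had 0 on the right and 14 on the left. Of all genes tested on this side, 0.403% had every BERKO biopsy below every WT biopsy, 0.572% had every one above, and so 0.975% had groups without overlap.

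The fitted change on the right was -5.88 ± 1.01 log2 units (SE), with an adjusted p of 0.0200 in edgeR's quasi-likelihood test. Its p was the smallest of all genes on that side, but Nr3c2 entered the test only through the WT right biopsies, where it is high. With 1 read in BERKO the fitted change depends on the prior count of the fit. The pooled reads, 1 in 3985137 gene reads of BERKO and 179 in 7593522 of WT, gave a ratio of 0.0106 with an exact 95% interval of 0.000268 to 0.0601. The interval covers counting error only. In bulk tissue, fewer cells that express a gene and less of its RNA per cell cannot be told apart. A feature-level reading is given by the upstream feature alone, with 97 reads in the WT right biopsies and 1 in the BERKO right biopsies, a ratio of 0.0196 (0.000492 to 0.112). It had reads in 6 of 6 WT right biopsies, from 5 to 27.

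The right-side call depended on the mice and the test. It was lost without BERKO 2 (-5.71, adjusted p = 0.0810), BERKO 3 (-5.65, 0.0936) or BERKO 4 (-7.56, 0.0567) and with limma-voom (-4.57, 0.247), while DESeq2 kept it (-5.93, 0.000185). Without any 1 of the 6 WT mice, Nr3c2 no longer passed the filter, and with no filter it was called in each of these 6 cases, with the highest adjusted p, 0.0323, without WT 3. With no filter it was also called without each of the 5 BERKO mice (adjusted p from 0.00144 to 0.00870). The right biopsy of WT 3 held 80 of the 179 WT reads, 26 of them from an intron feature at chr8:79723017 with reads in no other biopsy, and it had the highest share of intron reads of all 22 libraries, 3.96%, against 1.63% to 2.45% in the others. Without intron features the change was -5.44 ± 1.05 (adjusted p = 0.0268). Promoter features alone with no filter gave -5.002 ± 1.30 (adjusted p = 0.0887).

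Other measures moved with genotype on the right side too. The share of reads in coding and 3' UTR features was 10.6% to 16.0% in WT right biopsies and 16.4% to 20.9% in BERKO right biopsies, without overlap. Nr3c2 is read mainly from an upstream feature, and Nr3c1, Pgrmc2 and Esrra mainly from coding or 3' UTR features. Gene reads were 801303 to 1893400 in WT right biopsies and 626499 to 948140 in BERKO right biopsies. All 6 microglia markers were detected in both groups, and their sum was 300.5 to 540.6 CPM in WT right biopsies and 560.5 to 719.4 CPM in BERKO right biopsies, also without overlap. The 6 excitatory neuron markers summed to 1882 to 4041 CPM in WT and 3644 to 5720 CPM in BERKO on that side. On the left, the endothelial markers summed to 50.0 to 281.8 CPM in WT biopsies and 293.7 to 375.5 CPM in BERKO biopsies, without overlap. The sums of the other marker lists overlapped on that side. The part of these differences in the results of the 9 genes was not tested. By the well codes in the column names, WT and BERKO, and right and left, sat in separate plate rows, so plate row cannot be told apart from genotype or side.

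On the left side the Nr3c2 groups overlapped. The left biopsies of WT 1 to WT 6 had 23, 0, 7, 13, 4 and 0 reads, and those of BERKO 2 to BERKO 6 had 14, 0, 0, 0 and 0. The only BERKO library with more than 1 read of Nr3c2 was thus the left biopsy of BERKO 2, with 14 reads from the upstream feature, or 19.9 CPM. The pooled ratio of BERKO to WT on the left was 0.535 (exact 95% interval 0.272 to 0.989, counting error only). Nr3c2 did not pass the filter on this side. The genotype effect on the left minus that on the right was 4.03 ± 2.40 log2 units (adjusted p = 0.998), so a difference between the sides was not shown. Its 95% interval ran from -0.67 to 8.73, and without BERKO 2 the value was 0.31 ± 0.76.

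Summed over both sides of each mouse, Nr3c2 was at 5.21, 15.4 and 29.9 CPM in the lowest, median and highest WT mouse. BERKO 2 to BERKO 6 were at 10.7, 0, 0.766, 0 and 0 CPM. Of the 5 BERKO mice, 4 lay below all 6 WT mice, and BERKO 2 lay within their range. The change was -2.79 ± 0.86 log2 units (SE) with an adjusted p of 0.291, which did not pass. Without BERKO 2 it was -5.97 ± 0.97 with an adjusted p of 0.00721. The upstream feature gave -2.24 ± 0.88 (adjusted p = 0.332) and, without BERKO 2, -5.42 ± 1.01 (adjusted p = 0.0264).

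**Figure D2:**
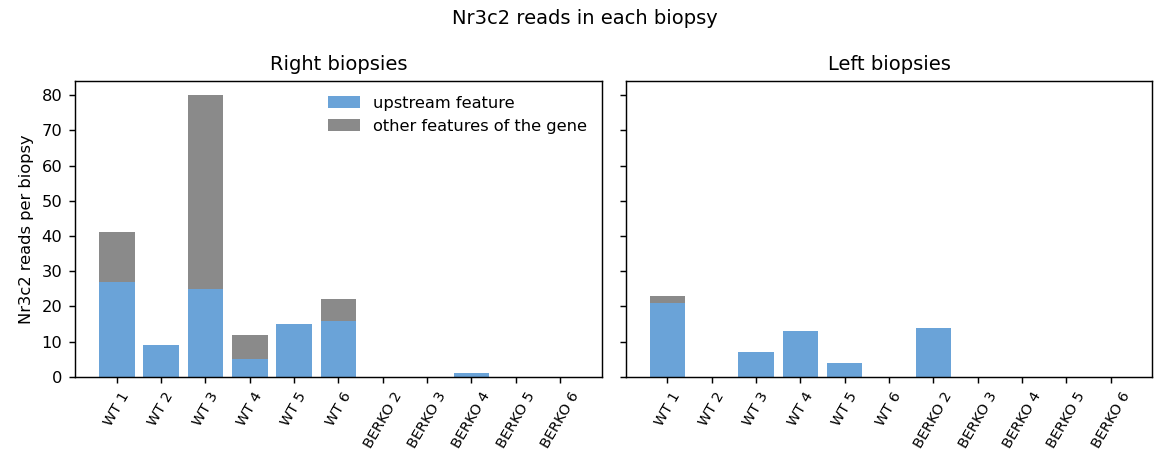
Reads of Nr3c2 in each biopsy (y axis, reads), right biopsies on the left panel and left biopsies on the right panel, split into the upstream feature and all other features of the gene. The WT right biopsies have 9 to 80 reads and the BERKO right biopsies 0 or 1, while the left biopsies of both genotypes include zeros and BERKO 2 has 14.

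Nr3c1, the glucocorticoid receptor, did not differ between the genotypes beyond the spread of the mice. The WT mice were at 17.6, 93.3 and 113.1 CPM (lowest, median and highest), and BERKO 2 to BERKO 6 at 107.4, 136.5, 144.7, 128.3 and 89.7 CPM. Of the 5 BERKO mice, 3 lay above all WT mice. The change was 0.53 ± 0.33 log2 units (adjusted p = 0.598), with a 95% interval of -0.11 to 1.17. On the right it was 0.55 ± 0.32 (adjusted p = 0.657) and on the left 0.47 ± 0.33 (adjusted p = 0.828). The leading coding feature, which holds 73.8% of the reads, gave 0.42 ± 0.36 (adjusted p = 0.687).

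WT 1 was far below all other mice for Nr3c1. Its right and left biopsies had 17.5 and 18.6 CPM, from 37 and 13 reads, while the other 20 biopsies lay between 77.7 and 150.2 CPM. Both WT 1 biopsies are among the 3 with high subcortical marker levels, but the third of these, the left biopsy of WT 2, had 80.3 CPM. Without the 3 libraries the genotype change of Nr3c1 was 0.29 ± 0.19 (adjusted p = 0.753), and without WT 1 it was 0.31 ± 0.18 (adjusted p = 0.661).

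Pgrmc1, a heme-binding partner of cytochrome P450 enzymes, was high in part of the WT left biopsies. The WT left biopsies were at 286.0, 437.7 and 841.9 CPM (lowest, median and highest), and the left biopsies of BERKO 2 to BERKO 6 at 214.6, 320.1, 282.7, 199.9 and 229.3 CPM. Of the 5 BERKO left biopsies, 4 lay below all WT left biopsies, and that of BERKO 3 lay within their range. The change on the left was -0.97 ± 0.26 log2 units (SE), with an adjusted p of 0.489. It passed only with no filter on low counts (-0.99 ± 0.21, adjusted p = 0.00540). The highest 2 of the 22 biopsies were the left biopsies of WT 2 (841.9 CPM) and WT 1 (649.1 CPM), which hold the high subcortical marker sums. The next highest, the left biopsy of WT 6 (540.1 CPM), had a subcortical marker sum of 377.7 CPM. Without the left biopsies of WT 1 and WT 2 the change on the left was -0.53 ± 0.23 (adjusted p = 0.998, edgeR).

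On the right, Pgrmc1 was at 267.8, 306.7 and 461.4 CPM in the lowest, median and highest WT biopsy. BERKO 2 to BERKO 6 were at 315.3, 372.1, 336.5, 280.1 and 382.2 CPM on that side, all within the WT range. The change there was 0.05 ± 0.17 log2 units (adjusted p = 0.972), with a 95% interval of -0.30 to 0.39. The genotype effect on the left minus that on the right was -0.95 ± 0.27, rank 3 of 8308 genes by p, but its adjusted p was 0.998. Without WT 1 and WT 2 it was -0.69 ± 0.28. Over both sides the change was -0.32 ± 0.16 (adjusted p = 0.510), and -0.08 ± 0.14 without the 3 libraries.

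**Figure D3:**
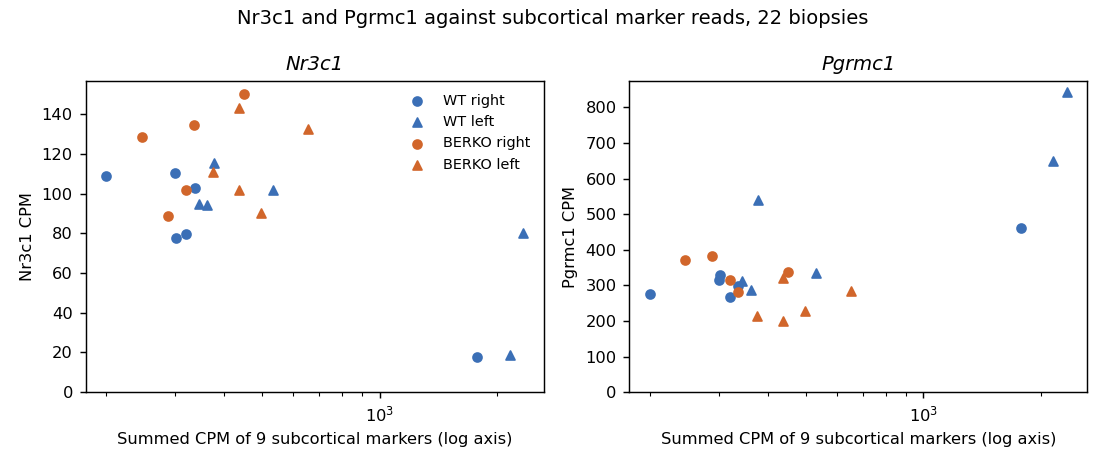
CPM of Nr3c1 (left) and Pgrmc1 (right) in the 22 biopsies against the summed CPM of 9 subcortical and hypothalamic markers (log axis), coloured by genotype with circles for right and triangles for left biopsies. The 3 WT libraries with sums of 1776 to 2324 CPM hold the 2 lowest values of Nr3c1 and the 2 highest of Pgrmc1. The next highest Pgrmc1 value, 540.1 CPM, is in the left biopsy of WT 6, with a sum of 377.7 CPM.

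Pgrmc2 was at 5.98, 16.0 and 20.3 CPM in the lowest, median and highest WT mouse. BERKO 2 to BERKO 6 were at 18.3, 22.2, 30.6, 25.2 and 20.1 CPM, and 3 of these 5 lay above all WT mice. The change was 0.61 ± 0.37 log2 units (adjusted p = 0.585), with a 95% interval of -0.11 to 1.34. It was 0.89 ± 0.52 on the right (adjusted p = 0.657) and 0.27 ± 0.63 on the left (adjusted p = 0.979). The left biopsy of WT 4 had 0 reads of Pgrmc2 and the left biopsy of WT 2 had 39.2 CPM, so the WT left biopsies spanned the whole range of the 22.

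Esrra and Esrrg, the estrogen-related receptors, were measured with about the same small number of reads. Esrra was at 1.41, 8.27 and 19.3 CPM in the lowest, median and highest WT mouse and at 17.5, 7.15, 12.3, 14.7 and 11.9 CPM in BERKO 2 to BERKO 6, within the WT range. Its change was 0.44 ± 0.55 log2 units (adjusted p = 0.843). Esrrg was at 5.83, 8.71 and 19.6 CPM in the WT mice and at 12.9, 16.4, 6.13, 1.05 and 5.02 CPM in BERKO 2 to BERKO 6. BERKO 5 and BERKO 6 lay below all WT mice, and the change was -0.36 ± 0.58 (adjusted p = 0.874). At these depths the 95% intervals, -0.64 to 1.51 for Esrra and -1.50 to 0.77 for Esrrg, leave changes of more than 1 log2 unit possible. The most read intron feature of Esrrg, at chr1:189475042, had 33 reads in 5 WT biopsies and 52 in 5 BERKO biopsies. The 2 next features, at chr1:189475399 and chr1:189475717, had 21 and 30 reads in WT and 0 in BERKO. Neither feature was tested, and 10 of the 21 and 17 of the 30 reads came from the right biopsy of WT 3. The right biopsy of WT 3, with its high intron share, held 45 of the 150 WT reads of Esrrg.

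**Figure D4:**
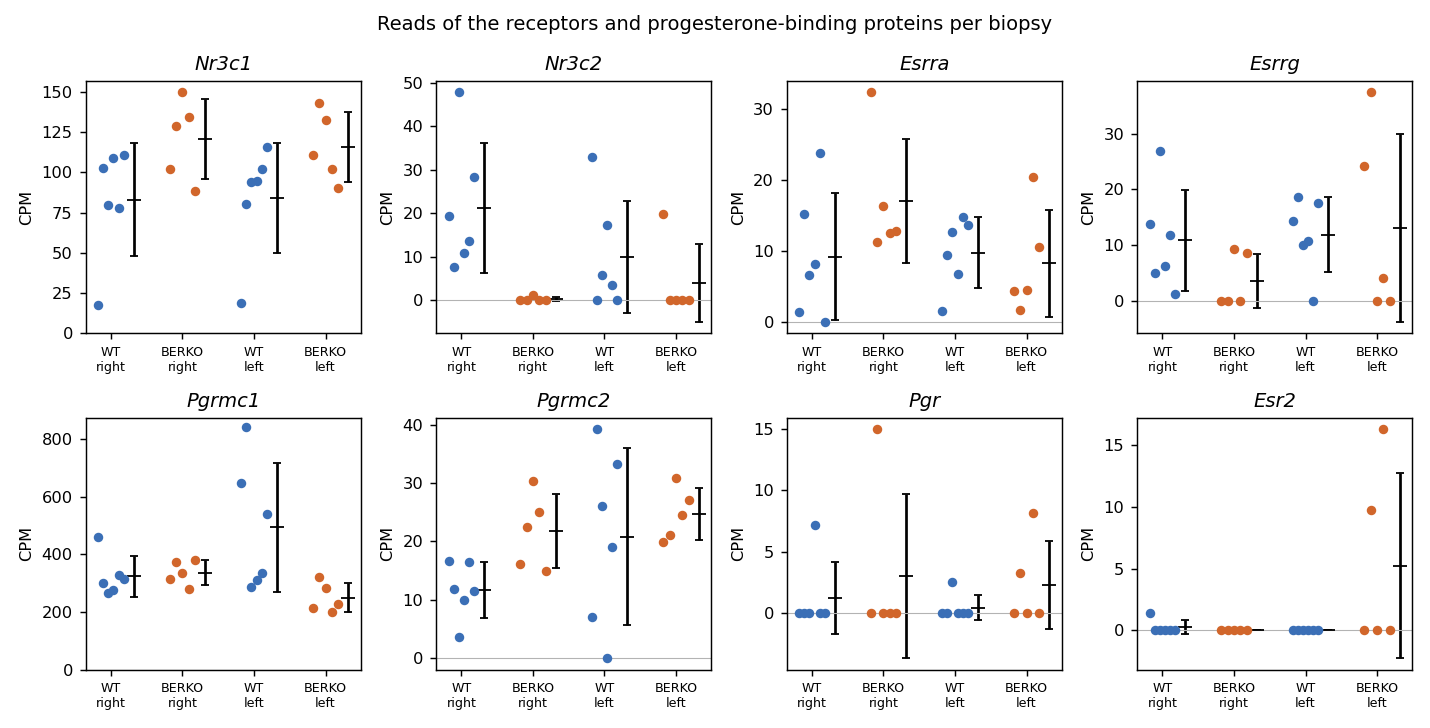
CPM of 8 of the 9 genes in each biopsy (dots, in order of mouse number within a group) with mean and SD (bars) in the 4 groups of genotype and side; each panel has its own scale, and Esr1, with 0 reads, is left out. BERKO right biopsies lie at 0 to 1.16 CPM for Nr3c2 against 7.59 to 47.8 CPM in WT right biopsies, while the groups overlap in the other panels.

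Left and right biopsies of the same mice were compared with the mouse as a block. Of the 6 genes tested, 0 differed, 0 had an unadjusted p under 0.05, and 0.0% of all 8308 genes were called, with 5.57% at an unadjusted p under 0.05. Nr3c1 was nearest to no change, at 0.00 ± 0.17 log2 units (left minus right, adjusted p = 0.999). Its 95% interval ran from -0.34 to 0.33. Pgrmc1 was at 0.08 ± 0.16, Pgrmc2 at 0.37 ± 0.47, Esrra at -0.39 ± 0.66, Esrrg at 0.55 ± 1.00 and Nr3c2 at -1.08 ± 0.98. The genotype effect differed between the sides for 0 of the 6, with 0.0% of all genes called and 3.26% at an unadjusted p under 0.05; Pgrmc1 was the 1 gene of the 6 at such a p.

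By median over biopsies, Nr3c2 was highest in WT right (16.6 CPM), then WT left (4.67 CPM), with both BERKO groups at 0. For Pgrmc1 the order was WT left (437.7 CPM), BERKO right (336.5), WT right (306.7) and BERKO left (229.3). For Nr3c1 it was BERKO right (128.6), BERKO left (110.9), WT left (94.5) and WT right (91.2). For Pgrmc2 the order was BERKO left (24.5), then WT left and BERKO right (both 22.5) and WT right (11.7). For Esrra it was BERKO right (12.8), WT left (10.98), WT right (7.34) and BERKO left (4.42), and for Esrrg WT left (12.5), WT right (9.09), BERKO left (4.08) and BERKO right (0). In each of these orders, neighbouring groups overlapped in their ranges.

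**Figure D5:**
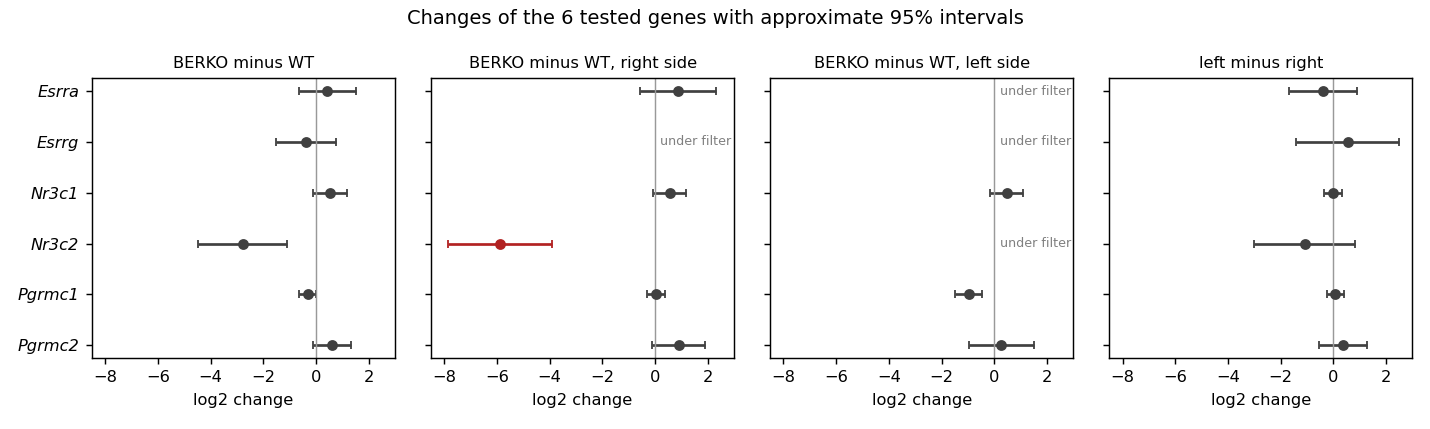
Changes in log2 units (x axis) of the 6 tested genes in 4 comparisons, with points for the fitted change and bars for the approximate 95% interval; a gene under the expression filter in a comparison is marked so. Nr3c2 on the right side (-5.88, red) is the single change with an adjusted p under 0.05. It passed the filter there only through the WT biopsies.

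The genes around these receptors were read from 8 lists. Of 20 glucocorticoid-induced genes, 14 were tested over mice, and 1 rose in BERKO while 0 fell, against 4 higher and 3 lower among all 9025 genes (0.0776% called). That gene was Cdkn1a, an inhibitor of the cell cycle that many stress signals raise, at 41.9 ± 16.3 CPM in WT (SD, n = 6) and 107.7 ± 29.6 CPM in BERKO (SD, n = 5). The mice ranged from 23.9 to 68.9 CPM in WT and from 57.9 to 130.5 CPM in BERKO, so the groups overlapped. Its change was 1.37 ± 0.26 log2 units (adjusted p = 0.0278). The call was lost without the 3 libraries (1.14, adjusted p = 0.0800), with limma-voom (0.0948), and without WT 3, 5 or 6 or BERKO 3, 4, 5 or 6 (0.0538 to 0.132). This list, like the others, was drawn up with earlier results of these data known. Its 1 call is therefore no support for the list as a set. The list had a median change of 0.17 log2 units, against -0.01 over all genes tested. A group of 3 genes best known as direct glucocorticoid receptor targets in brain did not pass. Fkbp5, a cochaperone that restrains the receptor, was at -0.28 ± 0.67 (adjusted p = 0.918), Sgk1, a kinase, at -0.19 ± 0.37 (0.901) and Tsc22d3, the leucine zipper GILZ, at -0.01 ± 0.20 (0.996), and all 3 values were above 0 with scaling to spike-in reads. Klf9, a transcription factor, was at 0.64 ± 0.20 (0.299) and Glul, glutamine synthetase, at 0.44 ± 0.17 (0.387).

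In the other 7 lists, edgeR's quasi-likelihood test called 0 of 114 genes tested, 11 of them at an unadjusted p under 0.05, against 895 of all 9025 genes (9.92%). DESeq2 called 1 of the 57 to which it gave an adjusted p, against 45 of 2724 over all genes, and limma-voom called 0, against 1 over all genes. Of 26 genes of steroid synthesis and conversion, 12 were tested. Hsd11b1, which regenerates active glucocorticoid inside cells, was at 85.3 ± 22.7 CPM in WT and 146.8 ± 30.3 CPM in BERKO (SD, n = 6 and 5), a change of 0.79 ± 0.20 that did not pass (adjusted p = 0.179). It passed with scaling to spike-in reads (adjusted p = 0.0392) and in DESeq2 (0.0446), and was 0.54 ± 0.19 without the 3 libraries (adjusted p = 0.412). Cyp7b1, a hydroxylase of neurosteroids and oxysterols, was at -0.91 ± 0.50 (0.550) and Tspo, a cholesterol-binding mitochondrial protein, at 0.62 ± 0.36 (0.566). The list's median change was 0.05.

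Of 18 estrogen-responsive genes, 13 were tested, with a median change of 0.26 log2 units. The smallest p belonged to Bdnf, a neurotrophin, at 0.55 ± 0.26 (adjusted p = 0.479), followed by Ybx1 at 0.55 ± 0.37 (0.630) and Cxcl12, a chemokine, at 0.30 ± 0.22 (0.664). Of 22 target genes of estrogen-related receptors, 21 were tested, with a median of 0.06. Acadm, an enzyme of fatty acid oxidation, was at 0.58 ± 0.24 (0.429), Cpt1a, which brings fatty acids into mitochondria, at 0.78 ± 0.33 (0.429) and Ppargc1a, their coactivator, at 0.41 ± 0.28 (0.640).

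Of 16 genes of the receptor chaperone complex, all 16 were tested, with a median of 0.01. Hsp90aa1, the chaperone that holds unliganded receptors, was at 0.28 ± 0.12 (adjusted p = 0.457), Fkbp4 at 0.40 ± 0.20 (0.520) and Ppid at -0.37 ± 0.20 (0.534). Of 24 coregulators, 20 were tested, with a median of 0.25. Smarca4, an ATPase of chromatin remodelling, was at 0.35 ± 0.16 (0.468), Safb at 0.40 ± 0.19 (0.482), Crebbp, an acetyltransferase, at 0.38 ± 0.21 (0.535), Ncoa1 at 0.23 ± 0.21 (0.748) and Ncor1 at -0.07 ± 0.18 (0.925), or 0.11 with scaling to spike-in reads. Of 35 other nuclear receptors, 14 were tested, with a median of -0.01, and the smallest p belonged to Thra, a thyroid hormone receptor (0.58 ± 0.24, 0.429), Nr2f1 (-0.76 ± 0.37, 0.499) and Nr1h2 (0.34 ± 0.21, 0.588).

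Of 21 membrane steroid receptors and partners of Pgrmc1, 20 were tested, with a median of 0.09. Serbp1, an RNA-binding protein found in complex with Pgrmc1, was at 0.44 ± 0.15 (adjusted p = 0.330), Paqr4 at 0.61 ± 0.25 (0.428), Cyb5b, a cytochrome b5, at -0.42 ± 0.21 (0.509) and Nenf, a secreted relative of Pgrmc1, at 0.45 ± 0.48 (0.795). On each side alone, 0 genes of the 8 lists were called.

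Of the 9 genes, 2 had a mean of 50 or more reads per mouse, and the genes whose levels were most like theirs over the 22 biopsies were sought among 4736 genes, as a description. For Nr3c1 these were Igfbp6 (Pearson r = 0.949, Spearman rho = 0.678) and Gabrd (0.937 and 0.754). Without the 2 biopsies of WT 1, the farthest from the median of Nr3c1, r was 0.628 and 0.712 over 20 biopsies. For Pgrmc1 they were Cxx1c (r = 0.819, rho = 0.584) and Pja1 (0.797 and 0.671). Without the left biopsies of WT 1 and WT 2, r was 0.553 and 0.656. The high values of r thus rest in part on these libraries, and biopsies of 1 mouse are not independent.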

How the data were processed

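The libraries were made by STRT-seq, which tags 5' ends of RNA, from 10 ng of RNA per biopsy. The authors aligned the reads with Bowtie and TopHat2 (2.0.12) to mm9, per the submitters' processing notes, and the deposited table holds raw read counts per feature. Its 64 columns are lanes, read from the column names (the last digit as the mouse, the digit ahead of the separator as the lane). They were summed per biopsy (3 lanes for 21 biopsies, 1 lane for 1). The library with 1 lane was the left biopsy of BERKO 5, which had the fewest gene reads, 239058. Lanes of a biopsy differed by less than sampling noise (chi-square per gene 0.690 to 0.849, against 4.34 to 22.0 between biopsies of a group). Features with 1 annotated symbol were summed per gene, which held 94.8% of endogenous reads. Spike-in and ribosomal features were left out.

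Tests used edgeR 4.0.16 in R 4.3.3 (quasi-likelihood, TMM scaling, filterByExpr, two-sided, Benjamini-Hochberg over all genes tested, threshold 0.05), on biopsies summed per mouse or within 1 side. Left and right were paired by the labels' mouse field. Their deviations correlated at -0.121 to 0.343 over 11 mice, with 2 over 0.1. P-values of the genotype tests measure the spread between these mice. Those of left minus right, and of the genotype effect by side, measure the spread of the side difference across mice. CPM are per 1000000 gene reads after TMM scaling, except detection limits and pooled ratios, which are unscaled. Alternatives included limma-voom (3.58.1) and DESeq2 (1.42.0), other scalings and filters, and leaving out each mouse. The scripts were tested on simulated data. All 9 genes are named whatever their p. From each list, the up to 3 genes with the smallest p and some preset genes are named, of which Greb1 and Cyp19a1 were not tested. The genes and lists were chosen with earlier results of these data known.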

Additional observations from a re-analysis of the deposited data

Results flagged for a closer look

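In groups of 5 or 6, the highest or lowest value was set against the group's range, and 15 of 48 groups held a value far from the others. Chance gives about 1 in 20, and many of these groups consist of zeros with 1 detected biopsy. For Nr3c1, WT 1 stood low over both sides (17.6 CPM, others 84.1 to 113.1), on the right (17.5, others 77.7 to 110.7) and on the left (18.6, others 80.3 to 115.5). For Pgrmc1, the right biopsy of WT 1 stood high at 461.4 CPM (others 267.8 to 328.0). For Nr3c2, BERKO 2 stood high at 10.7 CPM over both sides (others 0 to 0.766) and at 19.9 CPM on the left (others 0), and the right biopsy of BERKO 4 held the 1 read of its group (1.16 CPM).

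For Esrra, the right biopsy of BERKO 2 was at 32.3 CPM, against 11.2 to 16.3 in the others. For Pgr, WT 4 was at 4.35 CPM over both sides (others 0 to 1.03) and 7.20 on the right, the left biopsy of WT 3 at 2.52, and BERKO 3 at 10.0 over both sides (others 0 to 2.10) and 15.0 on the right. For Esr2, WT 1 was at 1.05 CPM over both sides and 1.42 on the right, with 0 in the other WT mice.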

How the results depend on the processing

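Over 63 results, 1385 values under alternatives were computed. With a missing adjusted p counted as not called, 1331 of these kept their direction and side of the threshold. Another 16 lost a call, 5 gained one and 33 changed sign. The cause was not tested. Genes called over mice (7) became 45 with spike-in scaling, 14 with no filter, 3 with reads thinned to the shallowest mouse, 45 with DESeq2, 1 with limma-voom and 1 to 18 when 1 mouse was left out. On the right (5) they became 17 with no filter, 0 with promoter features alone, 3 with spike-in scaling, 0 with limma-voom, 23 with DESeq2 and 0 to 31 when 1 mouse was left out, the upper end with no filter. On the left (0) they became 22 with no filter, 5 with DESeq2 and 0 to 1 when 1 mouse was left out. Between left and right (0) they became 9 with no filter and 0 to 3 when 1 mouse was left out. Features (15) became 139 with no filter and 8 to 47 when 1 mouse was left out.

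WT and BERKO mice share numbers but are different animals, and same-numbered mice did not deviate together (r from -0.0333 to 0.0539, 0 of 5 over 0.1). With mouse number as a replicate block, calls were 9 over mice, 1 on the right, 0 on the left and 16 for features, and Nr3c2 on the right was at -5.82 (adjusted p = 0.120, edgeR). Without the mouse as a block, Nr3c2 left minus right was 0.14.

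Values near 0 changed sign. Leaving out 1 mouse gave -0.0052 to 0.18 for Pgrmc1 on the right, where the lowest value over all 32 alternatives was -0.012. For left minus right, leaving out 1 mouse gave -0.034 to 0.042 for Nr3c1 and -0.051 to 0.16 for Pgrmc1. For the genotype effect on the left minus that on the right, leaving out 1 mouse gave -0.25 to 3.301 for Esrrg, -0.15 to 0.015 for Nr3c1 and -0.78 to 0.19 for Pgrmc2. Over mice it gave -0.13 to 0.0037 for Ncor1, -0.33 to 0.29 for Sgk1 and -0.10 to 0.18 for Tsc22d3. Spike-in scaling gave 0.11 for Ncor1, 0.013 for Fkbp5, 0.085 for Sgk1 and 0.21 for Tsc22d3. Limma-voom gave 0.14 for Fkbp5, 0.086 for Sgk1 and 0.032 for Tsc22d3, and thinned reads gave 0.062 for Tsc22d3. Promoter features alone gave -0.11 for Smarca4, -0.039 for Fkbp4 and, with no filter, -0.15 for Pgrmc2 on the right. RLE scaling gave 0.012 for Nr3c1 left minus right. Leaving out the 3 libraries was planned for genes over mice and for features. Leaving them out within a side or for the genotype effect by side was chosen after seeing the data. So was leaving out intron features or the right biopsy of WT 3. The same holds for limma-voom, DESeq2 and spike-in scaling within a side. It also holds on the right for promoter features alone and for leaving out 1 mouse with no filter. Depth limits Esr2 and Pgr to counts, and Nr3c2 on the left to no test. Esr1 had no counted feature on its own strand.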
